A study of Mus musculus with 4 samples.

Results

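The enzymes that make, desaturate and elongate fatty acids were examined in cultured mouse oligodendroglial cells (OGCs) with and without a conditional deletion of the zinc finger gene Zfp276. The group holds 10 genes (Acly, Acaca, Fasn, Me1, Scd1, Scd2, Fads1, Fads2, Elovl5 and Elovl6), taken by gene symbol from the 53465 genes listed in the count files, and all 10 were found under these symbols and passed the filter on low counts. OGCs were prepared from the forebrain of mice aged 2 to 4 days by way of mixed glial cultures, freed from the glial layer by shaking, depleted of microglia and differentiated for 3 days. The ctrl mice were Zfp276 flox/flox, and the Zfp276cko mice were Zfp276 flox/flox and carried Sox10::Cre, a BAC transgene that is active in the oligodendroglial lineage from the precursor stage on. There were 2 libraries per genotype, each from a separate cell preparation that pooled 3 mice. The mice were of either sex, and their background was a mix of C3H and C57Bl/6J. An added Rosa26 allele with a floxed stop and tdTomato served to recognise Zfp276cko newborns in the matings for these cultures.

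Fatty acid synthesis starts from cytosolic citrate. ATP citrate lyase (Acly) splits it into acetyl-CoA, acetyl-CoA carboxylase (Acaca) turns this into malonyl-CoA, and fatty acid synthase (Fasn) joins these units into palmitate with reducing power that malic enzyme (Me1) helps to supply. Elongases of the ELOVL family then lengthen the chain, stearoyl-CoA desaturases (Scd1, Scd2) place a double bond in saturated chains, and front-end desaturases (Fads1, Fads2) act on polyunsaturated chains. Many of these genes are targets of the SREBP transcription factors, and oligodendrocytes need large amounts of their products, since myelin is rich in lipid.

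The libraries held between 21068322 and 26599809 counted reads. Zfp276 had 1648 (ctrl replicate 1) and 2230 (ctrl replicate 2) normalized counts, against 490 and 503 in the respective Zfp276cko libraries, or −1.97 on the log2 scale (standard error 0.18, edgeR adjusted p = 0.0962, DESeq2 adjusted p = 1.16e-14). The exons of Zfp276 outside the floxed stretch are still counted. The paper relates the Zfp276 transcript left in these cultures to incomplete deletion, which it also saw by staining in the spinal cord. The share of cells that kept the gene was not tested here. The ctrl libraries differed far more than the Zfp276cko libraries, and 12.7% of genes with a mean of at least 20 were 2-fold apart between the former against 0.307% between the latter. Markers of fibroblasts and vessels, of which 8 of 10 were tested, summed to 9025 normalized counts in ctrl replicate 1 and to 548 in ctrl replicate 2, against 473 and 428 in the Zfp276cko libraries, and Cldn5, which marks endothelium, was at 0 in all 4. Of the 9 tested neuronal markers all were lower in ctrl replicate 1 than in ctrl replicate 2. Microglia markers, all 15 tested, summed to between 52414 and 75485 in ctrl and between 57256 and 59055 in Zfp276cko cells. The 15 interferon response genes summed to 11166 and 5046 in the ctrl libraries and to 86812 and 84676 in the Zfp276cko libraries. The part of these differences in the results below was not tested.

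Promoter sequences of the genes are shown because 8 of the 10 were lower in Zfp276cko cells in every library and several share known regulators. The windows hold the 250 bases before the RefSeq start of transcription and the first 50 transcribed bases (GRCm38.p6, the assembly of mm10). They are written 5′ to 3′ on the strand of the gene, and were found for 7 of the 10 genes; those of Scd1, Scd2 and Fads1 were not analysed here. Capitals mark matches on either strand to a CCAAT box (searched as its letters), to a GC box with the letters GGGCGG, or to an E-box with the letters CACGTG. Acly (chr11:100527951-100528250) and Fads2 (chr19:10101454-10101753) had the smallest DESeq2 adjusted p of the group, and Fasn (chr11:120824498-120824797) and Elovl5 (chr9:77917115-77917414) departed from the pattern of the others in opposite ways.
Acly: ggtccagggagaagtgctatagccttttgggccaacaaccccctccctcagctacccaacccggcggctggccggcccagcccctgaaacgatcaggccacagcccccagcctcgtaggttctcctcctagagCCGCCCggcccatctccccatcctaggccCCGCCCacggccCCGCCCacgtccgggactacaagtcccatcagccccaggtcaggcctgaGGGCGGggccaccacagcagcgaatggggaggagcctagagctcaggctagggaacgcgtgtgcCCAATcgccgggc
Fads2: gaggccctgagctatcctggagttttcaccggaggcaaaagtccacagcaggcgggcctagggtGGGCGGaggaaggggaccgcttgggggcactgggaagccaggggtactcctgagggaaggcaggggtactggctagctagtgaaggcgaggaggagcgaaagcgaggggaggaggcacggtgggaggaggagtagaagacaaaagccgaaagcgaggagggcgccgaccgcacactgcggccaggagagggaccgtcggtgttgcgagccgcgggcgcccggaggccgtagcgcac
Fasn: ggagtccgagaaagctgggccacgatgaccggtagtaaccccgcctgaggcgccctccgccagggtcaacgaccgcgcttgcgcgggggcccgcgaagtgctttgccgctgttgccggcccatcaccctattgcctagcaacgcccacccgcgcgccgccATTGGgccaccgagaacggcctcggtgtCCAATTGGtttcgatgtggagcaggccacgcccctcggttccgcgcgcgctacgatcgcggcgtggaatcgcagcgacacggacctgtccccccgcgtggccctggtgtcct
Elovl5: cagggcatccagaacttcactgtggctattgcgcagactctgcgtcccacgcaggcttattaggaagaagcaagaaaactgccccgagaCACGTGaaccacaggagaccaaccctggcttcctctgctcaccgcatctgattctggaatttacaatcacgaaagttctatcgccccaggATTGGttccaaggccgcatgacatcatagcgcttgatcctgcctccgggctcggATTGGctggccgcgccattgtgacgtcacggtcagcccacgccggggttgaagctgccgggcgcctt
In the Acly window 4 GC boxes lay upstream of the start, and a CCAAT box began at position 38 after it, counted from 1 at the first transcribed base. Fasn had 3 CCAAT boxes, beginning 90, 62 and 59 bases before the start, of which the last pair overlap on opposite strands. Elovl5 had 2 CCAAT boxes and an E-box that begins 161 bases before the start, and Fads2 had 1 GC box. Over all 32544 windows of this length in the table, 37.4% held a CCAAT box, 35.9% a GC box and 7.17% an E-box. A sterol regulatory element of the letters TCACNCCAC, which 1.24% of all windows held, was found in none of the 7 genes. The same was true of AAAAGGGCT, a core binding sequence of Zfp276 (0.353% of all windows), and of the DR4 element bound by LXR receptors, the letters AGGTCA repeated with NNNN in between (0.0154%). With shares this small, no match among 7 genes is the usual outcome, so nothing can be read from it. Only these exact letters were searched, on both strands of this window, and sites that differ from them, such as variants of the Zfp276 sequence, were not. Some windows lie away from the start of the gene in the GENCODE annotation, by 243 bases for Fads2, 8676 bases for the second of the windows of Me1 and 65766 bases for Acaca, so that for Acaca the promoter at the annotated start was not searched.

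All 10 genes had a negative log2 fold change in Zfp276cko against ctrl cells, with a median of −0.50 beside −0.0011 over all tested genes. In 8 of the 10, each Zfp276cko library was below each ctrl library, as it was for 23.7% of all tested genes, while 26.8% of all tested genes had each Zfp276cko library above each ctrl library and 0 of the 10 did. With edgeR (quasi-likelihood test, p adjusted after Benjamini-Hochberg over 15766 genes), 0 of the 10 were called, which took an adjusted p up to 0.05, a log2 fold change of 0.6 or more in size and a mean of 20 or more normalized counts. Of all genes 0% were called lower and 0% higher. At an unadjusted p up to 0.05, 5 of the 10 were lower (Acly, Acaca, Scd2, Fads2 and Elovl6), against 7.30% of all genes lower and 8.33% higher. DESeq2 called 1 of the 10 lower, Acly, beside 2.30% of the genes with an adjusted p lower and 3.05% higher, and limma voom called 0. In these bulk cultures, fewer cells of a type and less RNA per cell cannot be told apart. Markers of precursors and of mature oligodendrocytes were lower as well. The 8 precursor (OPC) markers had a median of −0.49 on the log2 scale, 6 of them were lower in each Zfp276cko library, and they summed to 222046 and 159709 normalized counts in the ctrl libraries against 120724 and 118742 in the Zfp276cko libraries. This sum was higher in ctrl replicate 1 than in ctrl replicate 2, as were 5 of the 8 markers. The median of the markers was −0.33 set against ctrl replicate 1 and −0.48 set against ctrl replicate 2. For the 10 genes the order was the other way, at −0.81 and −0.34. Over 12 myelin genes the median was −0.76, and 10 of them were lower in each Zfp276cko library, but their sum was higher in ctrl replicate 2 (238989) than in ctrl replicate 1 (190385), against 123986 and 125988. The part of either list in the values of the 10 genes was not tested. Sox10, a transcription factor of the whole oligodendroglial lineage that was picked after its values were seen, had 18135 and 20744 normalized counts in the ctrl libraries against 17805 and 18611 in the Zfp276cko libraries.

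**Figure D1:**
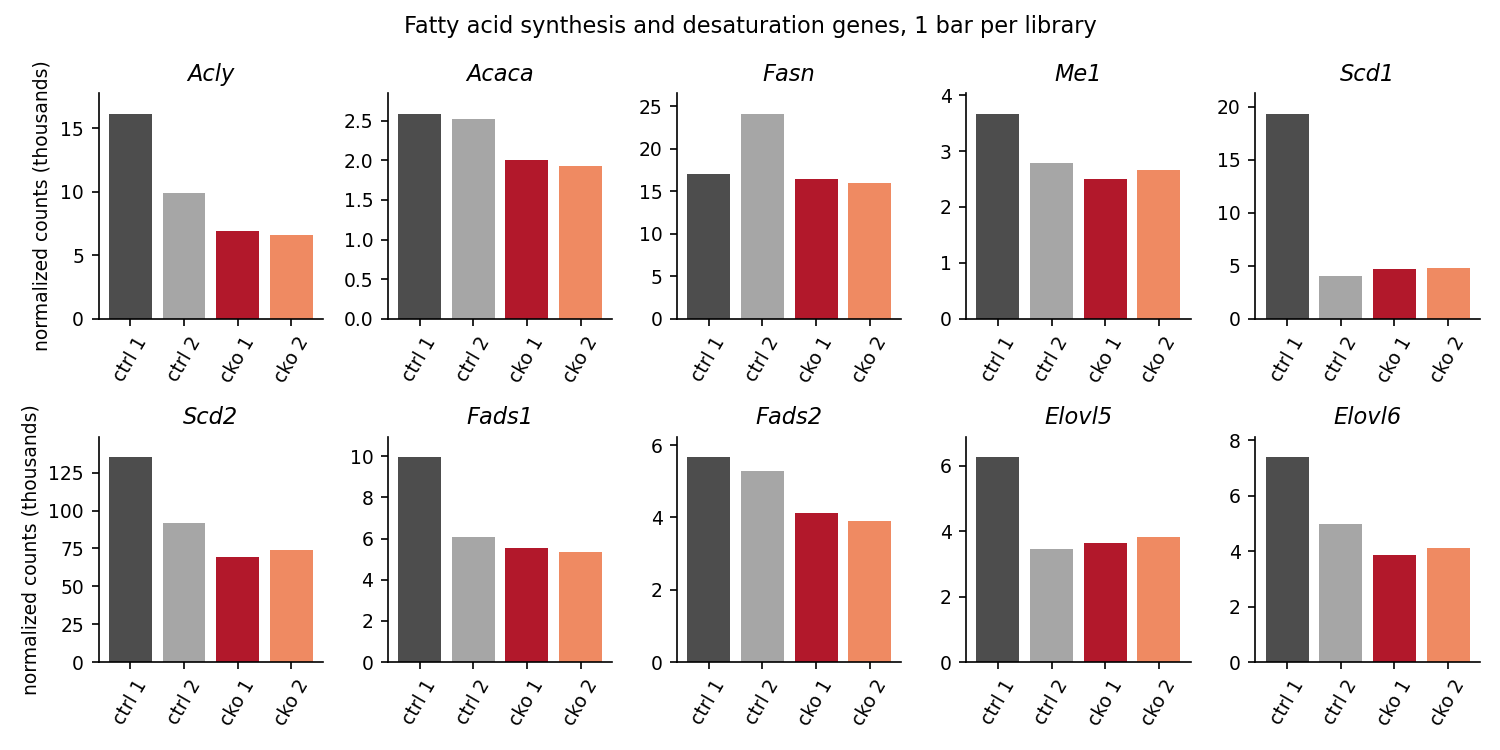
Normalized counts (linear axis from 0) of the 10 genes, with 1 bar for each library of ctrl and Zfp276cko (cko) cells. In 8 panels the red bars are below the grey bars, whereas for Scd1 and Elovl5 ctrl replicate 1 alone stands above the other 3 libraries.

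Among the enzymes that lead to palmitate, Acly had the largest difference. It had 16138 (ctrl replicate 1) and 9909 (ctrl replicate 2) normalized counts, against 6935 and 6579 in the respective Zfp276cko libraries. All Zfp276cko values were below the lower ctrl value, by at least 30.0% of it, although the ctrl replicates were themselves 1.63-fold apart. Acly differed by −0.95 on the log2 scale (standard error 0.26, 95% interval −1.66 to −0.23, edgeR adjusted p = 0.237), and DESeq2 gave −0.97 with an adjusted p of 0.0168. Leaving out ctrl replicate 1 brought the value for Acly to −0.55, under the size for a call, and leaving out ctrl replicate 2 brought it to −1.27.

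Acaca, the carboxylase of the committed step, had 2588 and 2520 normalized counts in the ctrl libraries against 2004 and 1932 in the Zfp276cko libraries. Here the replicates lay close together in either genotype, and the difference between genotypes was 9.68 times that between the ctrl replicates on the log2 scale. The log2 fold change of Acaca was −0.38 (standard error 0.08, 95% interval −0.60 to −0.15, unadjusted p = 0.00955 from edgeR's test and adjusted p = 0.186). It is smaller than the 0.6 needed for a call. Acacb, picked after its values were seen, encodes the carboxylase of the mitochondrial surface and had few counts in every library, between 24 and 120.

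Fasn had 16989 and 24068 normalized counts in the ctrl libraries against 16462 and 15989 in the Zfp276cko libraries. It was the only member of the 10 that was higher in ctrl replicate 2 than in ctrl replicate 1. The upper Zfp276cko value of Fasn was 3.10% below the lower ctrl value, so that the genotypes were barely apart, and the log2 fold change of −0.34 (standard error 0.20, edgeR adjusted p = 0.493) came to −0.08 with ctrl replicate 2 left out and to −0.57 with ctrl replicate 1 left out. Me1, the cytosolic malic enzyme, had 3664 and 2790 normalized counts in the ctrl libraries against 2505 and 2667 in the Zfp276cko libraries. Its log2 fold change of −0.32 (standard error 0.16, edgeR adjusted p = 0.433) was smaller than the difference of 0.39 between the ctrl replicates. Leaving out ctrl replicate 1 gave −0.11, and leaving out ctrl replicate 2 gave −0.52.

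The stearoyl-CoA desaturases Scd1 and Scd2, neighbours on chromosome 19 (44394455 to 44407879 on the minus strand and 44293674 to 44306864 on the plus strand), differed from each other in their pattern over the libraries. Scd2, the main form in brain, had 135091 and 91850 normalized counts in the ctrl libraries against 69628 and 73895 in the Zfp276cko libraries. The Zfp276cko values were the lowest, at 53.1% of ctrl replicate 1 and 78.1% of ctrl replicate 2 on average. For Scd2 the log2 fold change was −0.66 (standard error 0.24, 95% interval −1.31 to −0.01, edgeR adjusted p = 0.315), or −0.36 when ctrl replicate 1 was left out.

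Scd1 had 19302 (ctrl replicate 1) and 4005 (ctrl replicate 2) normalized counts, against 4665 and 4791 in the respective Zfp276cko libraries. A single library, ctrl replicate 1, was thus 4.82-fold above the other ctrl library, and the Zfp276cko libraries lay between the ctrl values. The log2 fold change of Scd1, −1.30, was the most negative of the 10 and had the widest interval, from −3.37 to 0.77 (edgeR adjusted p = 0.484). Without ctrl replicate 1 its sign turned, to 0.24, and without ctrl replicate 2 it was −2.04. Relative to Scd1, the level of Scd2 per length was 6.27 and 20.5 in the ctrl libraries against 13.4 and 13.8 in the Zfp276cko libraries, so that the ratio of this pair did not separate the genotypes. Only uniquely mapped reads were counted, and how many reads the related Scd genes share was not tested.

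The front-end desaturases lie close together on chromosome 19 as well, Fads2 from 10062765 to 10101746 and Fads1 from 10182888 to 10196877. Fads2, the delta-6 desaturase, had 5659 and 5296 normalized counts in the ctrl libraries against 4120 and 3905 in the Zfp276cko libraries. All values of Zfp276cko cells were at least 22.2% below the lower ctrl value, and the replicates agreed within either genotype. Fads2 differed by −0.45 on the log2 scale (standard error 0.10, 95% interval −0.72 to −0.18, edgeR adjusted p = 0.185, the smallest of the 10). DESeq2 gave an adjusted p of 0.0351, but the size was under the 0.6 for a call.

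Fads1, the delta-5 desaturase, had 9942 and 6097 normalized counts in the ctrl libraries against 5524 and 5348 in the Zfp276cko libraries. The Zfp276cko libraries were lower than either ctrl library, but ctrl replicate 2 was nearer to them than to ctrl replicate 1. The log2 fold change of −0.56 (standard error 0.26, edgeR adjusted p = 0.400) came to −0.16 when ctrl replicate 1 was left out and to −0.88 when ctrl replicate 2 was.

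Elovl6, which elongates palmitate to stearate, had 7379 and 4986 normalized counts in the ctrl libraries against 3861 and 4105 in the Zfp276cko libraries. Its values in Zfp276cko cells were 17.7% or more below the lower ctrl value. For Elovl6 the log2 fold change was −0.63 (standard error 0.22, 95% interval −1.22 to −0.05, edgeR adjusted p = 0.301), and −0.32 without ctrl replicate 1. Elovl5, which elongates polyunsaturated chains, had 6250 and 3459 normalized counts in the ctrl libraries against 3652 and 3808 in the Zfp276cko libraries. As for Scd1, ctrl replicate 1 stood alone and ctrl replicate 2 was the lowest library. The log2 fold change of Elovl5 was −0.38 (standard error 0.31, 95% interval −1.21 to 0.45, edgeR adjusted p = 0.602) and turned to 0.11 without ctrl replicate 1. Within a library, the level of Elovl6 relative to Elovl5 per length was 0.647 and 0.789 in the ctrl libraries against 0.579 and 0.590 in the Zfp276cko libraries. This ratio does not depend on library scaling and was lower in each Zfp276cko library. Its ctrl values lay further apart than the nearest values of the genotypes. With so few libraries such an order is common by chance, and the ratio was not tested. The other ratios computed between genes of the group, such as Fads1 to Fads2 and Fasn to Acly, did not separate the genotypes.

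**Figure D2:**
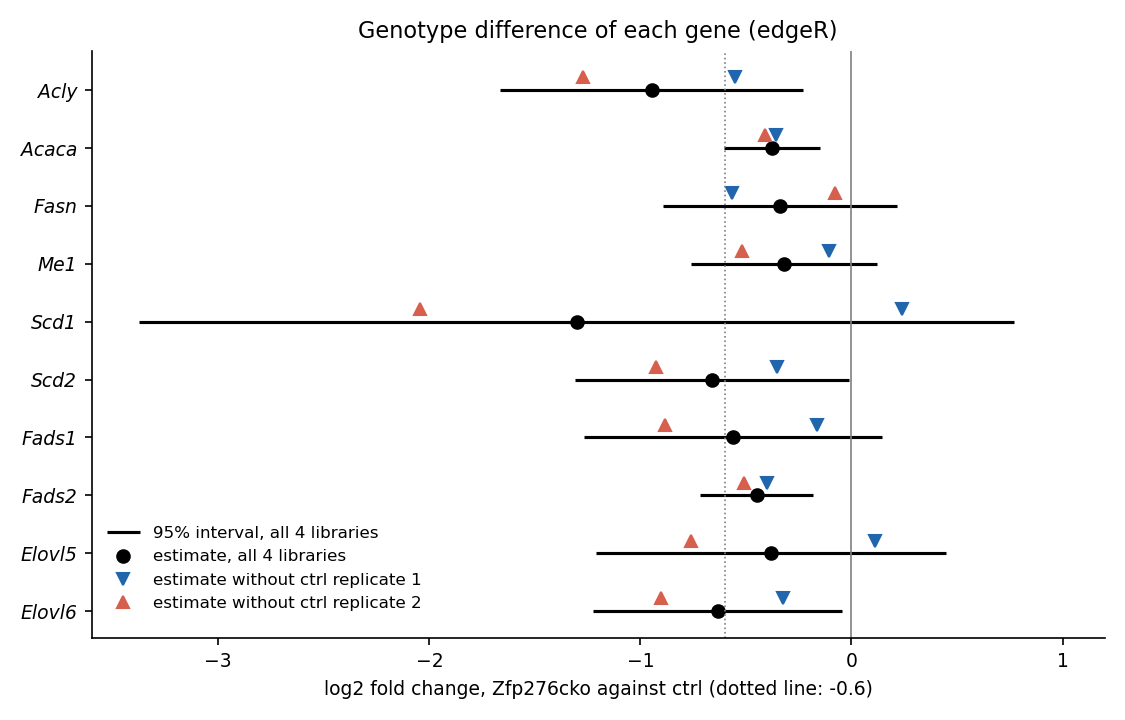
Log2 fold change of each of the 10 genes in Zfp276cko against ctrl cells from edgeR (black points) with its 95% interval (black lines), and the estimate when ctrl replicate 1 or ctrl replicate 2 is left out (triangles). All 10 black points lie below 0, and the triangles without ctrl replicate 1 lie above 0 for Scd1 (0.24) and Elovl5 (0.11).

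The ctrl replicates set how far these differences can be read. In 9 of the 10 genes ctrl replicate 1 was higher than ctrl replicate 2. In 5 of the 10, Fasn, Me1, Scd1, Fads1 and Elovl5, the difference between the ctrl replicates exceeded that between genotypes on the log2 scale. The absolute difference between the ctrl replicates had a median of 0.56 on the log2 scale over the 10 genes and of 0.32 over all tested genes. Between the Zfp276cko replicates the medians were 0.068 and 0.095. Against ctrl replicate 1 the mean of the Zfp276cko libraries was lower in 10 of 10 genes, and against ctrl replicate 2 in 8 of 10. Acaca and Fads2 were the members whose value depended least on the ctrl library, with log2 fold changes of −0.36 and −0.40 without ctrl replicate 1, and of −0.41 and −0.51 without ctrl replicate 2. With 2 libraries against 2, an exact two-sided permutation test of 1 gene cannot go below p = 0.333.

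Per transcript length, as RPKM, reads scaled to exon length and library size, Scd2 was by far the most abundant of the 10 in every library. Its RPKM was 879 ± 237 (SD, n = 2) in the ctrl and 556 ± 23.5 (SD, n = 2) in the Zfp276cko libraries. In ctrl cells Acly (104 ± 35.3), Scd1 (101 ± 93.5), Fasn (79.3 ± 19.3), Fads1 (70.5 ± 23.9), Fads2 (70.3 ± 3.30), Elovl5 (58.3 ± 23.7), Elovl6 (40.7 ± 11.1) and Me1 (35.5 ± 6.80) followed in mean RPKM, and no neighbours in this order differed beyond their SD. Acaca was the least abundant, at 6.33 ± 0.120 in the ctrl and 4.88 ± 0.125 in the Zfp276cko libraries, over a merged exon length of 17074 nt that includes alternative first exons.

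In Zfp276cko cells the order by RPKM was Scd2, Fasn (62.7 ± 1.28), Acly (54.2 ± 2.00), Fads2 (51.5 ± 1.94), Fads1 (47.8 ± 1.08), Elovl5 (44.8 ± 1.33), Scd1 (40.9 ± 0.780), Me1 (28.4 ± 1.27), Elovl6 (26.2 ± 1.14) and Acaca. There the neighbours Acly and Fads2, and Me1 and Elovl6, overlapped in mean ± SD, and the other neighbours did not. The summed RPKM of the 10 genes was 1738 and 1151 in the ctrl libraries against 902 and 932 in the Zfp276cko libraries. Scd2 made up between 59.8% and 61.8% of this sum in all 4 libraries, so that its share did not move with the sum. The share of Fasn was 3.78% and 8.08% in the ctrl libraries against 7.05% and 6.63% in the Zfp276cko libraries, and that of Scd1 was 9.60% and 3.01% in the ctrl libraries against 4.47% and 4.45% in the Zfp276cko libraries. In counts, the 10 genes took 0.882% and 0.654% of the counted reads in the ctrl libraries against 0.523% and 0.539% in the Zfp276cko libraries.

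**Figure D3:**
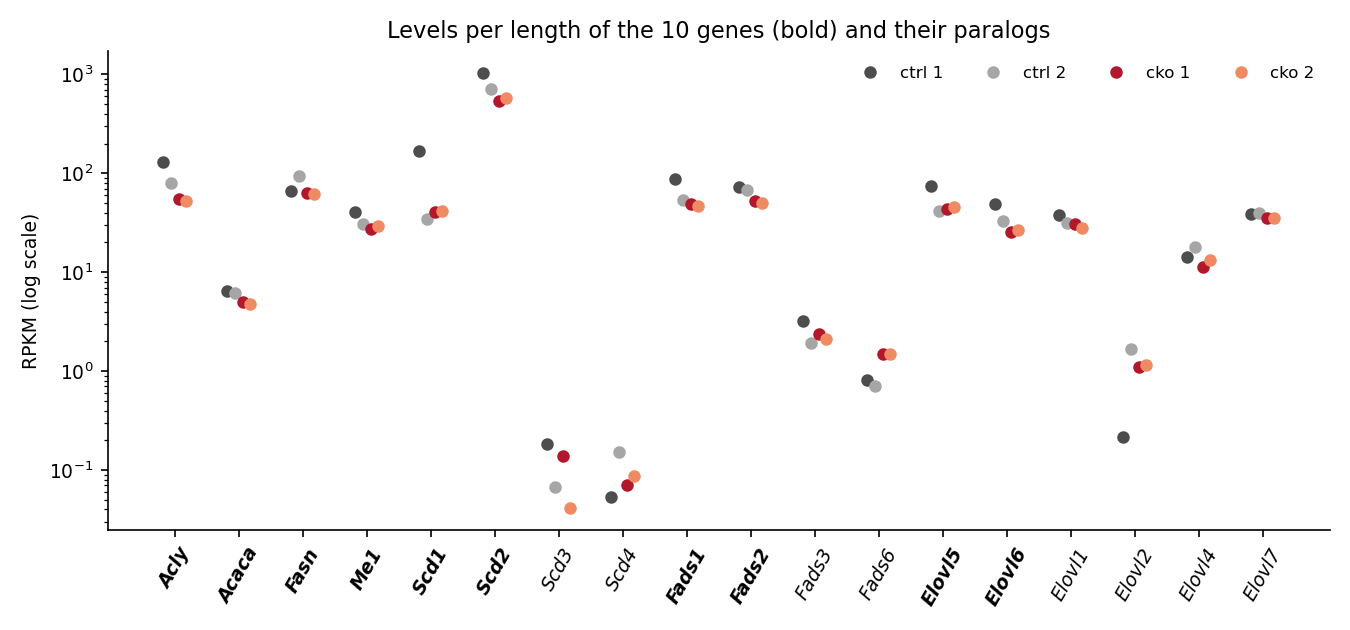
RPKM on a log axis of the 10 genes (bold) and of 8 paralogs, with 1 point for each library of ctrl and Zfp276cko (cko) cells. Scd2 lies above all others, between 539 and 1046, and Scd3 and Scd4 lie below 0.2 in every library.

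The paralogs of these desaturases and elongases were all below Scd2 in level, but not below every gene of the group. In the Zfp276cko libraries Elovl7 (35.7 and 35.1 RPKM) and Elovl1 (31.0 and 28.3) were above Elovl6 (25.4 and 27.0). In ctrl replicate 1 both were below Elovl6. In ctrl replicate 2 Elovl7 (40.1 RPKM) was above Elovl6 (32.8) and Elovl1 (31.35) was below it. Scd3, found mainly in skin glands, had between 4 and 13 counts per library, and Scd4, a heart form, between 4 and 12. Fads3 had 290 and 172 normalized counts in the ctrl libraries against 215 and 189 in the Zfp276cko libraries, so the genotypes overlapped. Fads6 went the other way, with 127 and 113 normalized counts in the ctrl libraries against 237 and 232 in the Zfp276cko libraries. Its log2 fold change of 0.97 (standard error 0.19) had an adjusted p of 0.171 in edgeR and of 0.0242 in DESeq2, which called it higher. Degs1, a desaturase of sphingolipid synthesis, had a log2 fold change of −0.31 (edgeR adjusted p = 0.303). Among the elongases, Elovl1, Elovl4 and Elovl7 were lower in each Zfp276cko library, with log2 fold changes of −0.23, −0.38 and −0.15 and edgeR adjusted p between 0.382 and 0.486. Elovl2, which acts on long polyunsaturated chains, had 20.2 and 158 normalized counts in the ctrl libraries against 104 and 109 in the Zfp276cko libraries, and Elovl3 had 2 counts at most in a library.

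The enzymes that work with the elongases and desaturases followed in part. Of 6 genes for the later steps of the elongation cycle, 4 were lower in each Zfp276cko library, with a median log2 fold change of −0.38, and for 3 of them the unadjusted p was 0.05 or less. Of all tested genes 23.7% were lower in each Zfp276cko library, and 7.30% were lower at an unadjusted edgeR p up to 0.05. Tecr, the last reductase of the cycle, had 8943 and 6914 normalized counts in the ctrl libraries against 5508 and 5212 in the Zfp276cko libraries, or −0.56 on the log2 scale (standard error 0.16, edgeR adjusted p = 0.241). For the dehydratases, the log2 fold change was −0.62 for Hacd1 (edgeR adjusted p = 0.189), −0.22 for Hacd3 (0.382) and 0.09 for Hacd2 (0.838). Cytochrome b5 (Cyb5a), which passes electrons to desaturases, had 3273 and 3286 normalized counts in the ctrl libraries against 2339 and 2374 in the Zfp276cko libraries. Its ctrl replicates were nearly equal, and the log2 fold change of −0.48 (standard error 0.08) had an adjusted p of 0.150 in edgeR and of 0.0131 in DESeq2. Cyb5b (−0.15), Cyb5r3 (0.01) and Cyb5r1 (0.40) had edgeR adjusted p between 0.499 and 0.987.

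Around the supply of citrate, acetyl-CoA and NADPH, 6 of 16 genes were lower and 2 higher in each Zfp276cko library, and the median log2 fold change was −0.06. Of all tested genes 23.7% were lower and 26.8% higher in this way. Idh1, a cytosolic source of NADPH, had 8934 and 9811 normalized counts in the ctrl libraries against 6328 and 6181 in the Zfp276cko libraries. In log2 terms this was −0.58 (standard error 0.11, adjusted p = 0.161 in edgeR and 0.00127 in DESeq2), under the size for a call. Acss2, which makes acetyl-CoA from acetate, had 2143 and 805 normalized counts in the ctrl libraries against 925 and 871 in the Zfp276cko libraries, so that, as for Scd1, ctrl replicate 1 stood alone. Me3 and Thrsp were higher in each Zfp276cko library but low, with means of 55 normalized counts or fewer in either genotype. Of 13 genes of glycerolipid assembly 4 were lower and 3 higher in each Zfp276cko library, with a median of −0.12. Dgat2, an enzyme of triglyceride synthesis, had 1333 and 2650 normalized counts in the ctrl libraries against 1345 and 1326 in the Zfp276cko libraries, Agpat4 had a log2 fold change of −0.38, and Agpat2 (0.68) and Lpin3 (0.85) were higher in each Zfp276cko library. Lpin3 was low, between 11.9 and 36.9 normalized counts, and its ctrl replicates lay further apart than the genotypes (edgeR adjusted p = 0.463).

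Fatty acid beta-oxidation, the opposing pathway, had no common direction. Of its 18 genes 6 were lower and 7 higher in each Zfp276cko library, beside 23.7% and 26.8% of all tested genes, with a median log2 fold change of 0.05. Hadha and Hadhb, the subunits of the trifunctional protein, had log2 fold changes of −0.51 and −0.74 (edgeR adjusted p = 0.197 and 0.230), whereas Acads, the short-chain acyl-CoA dehydrogenase, had 0.73 (adjusted p = 0.162 in edgeR and 0.0158 in DESeq2, which called it higher). Ehhadh, a peroxisomal enzyme, had 0.76 (edgeR adjusted p = 0.411).

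**Figure D4:**
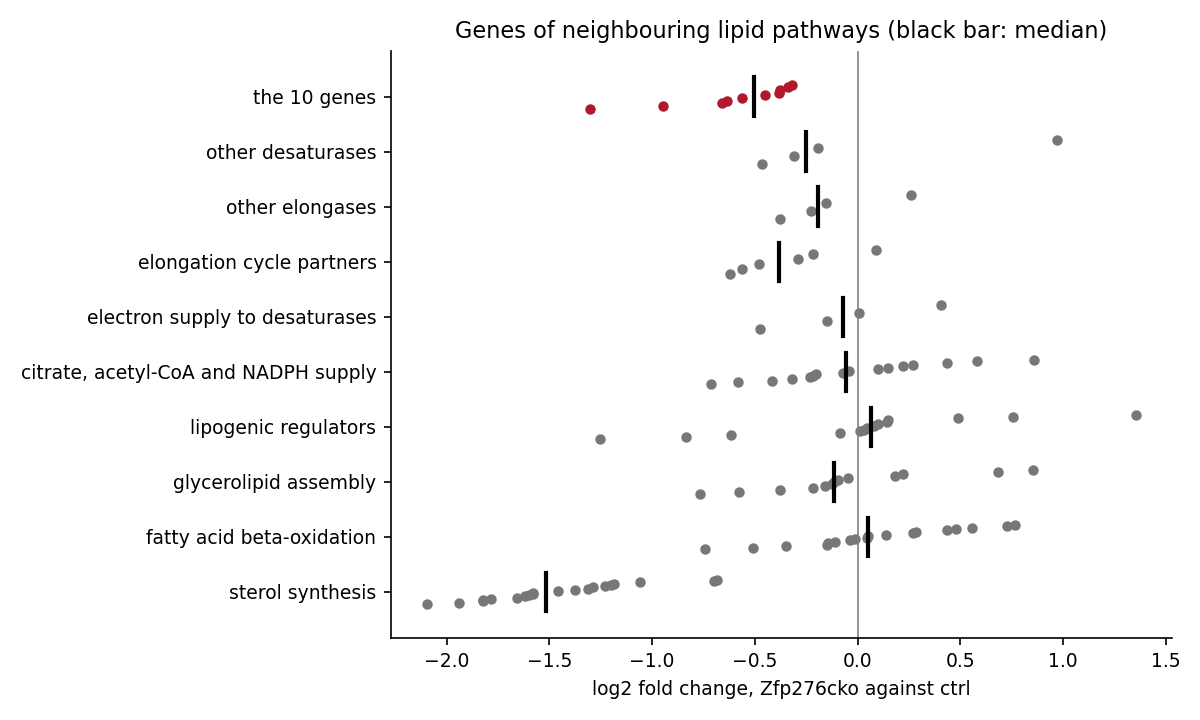
Log2 fold change in Zfp276cko against ctrl cells (edgeR) of the 10 genes and of the tested genes of 9 neighbouring lists, with 1 point per gene and a black bar at the median of each list. The median is −0.50 for the 10 genes, −1.52 for sterol synthesis and 0.05 for beta-oxidation.

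The sterol synthesis genes, which share SREBP regulators with the 10 genes, were lower by more. The median log2 fold change of these 20 genes was −1.52, against −0.50, and it was −1.99 set against ctrl replicate 1 and −0.91 set against ctrl replicate 2 (−0.81 and −0.34 for the 10 genes). The values ranged from −2.10 for Lss and −1.94 for Idi1 to −0.70 for Ebp and −0.68 for Pmvk, so that the smallest of them exceeded those of 8 of the 10 fatty acid genes. This difference between the lists was not tested.

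The regulators did not all go in the same direction. Of the 14 tested, 4 had a negative and 10 a positive log2 fold change, beside 7891 and 7858 of all tested genes. Those named by rule are the 2 lowest and the 2 highest of the list in log2 fold change, so that they show its extremes. Insig1, the sterol sensor that holds SREBPs in the endoplasmic reticulum and is itself an SREBP target, had 3378 and 2475 normalized counts in the ctrl libraries against 1213 and 1246 in the Zfp276cko libraries. In log2 terms this was −1.25 (standard error 0.18, edgeR adjusted p = 0.123), and DESeq2 called it lower (adjusted p = 5.75e-06). Srebf2, singled out after its values were seen, encodes the SREBP of sterol synthesis. It had 8015 and 7760 normalized counts in the ctrl libraries against 5219 and 5078 in the Zfp276cko libraries, with close replicates and a log2 fold change of −0.62 (standard error 0.10, edgeR adjusted p = 0.134), and DESeq2 called it lower (adjusted p = 2.66e-04).

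Srebf1, which encodes the SREBP that mainly drives fatty acid synthesis, went in the other direction than the 10 genes. It had 844 and 1515 normalized counts in the ctrl libraries against 2063 and 1927 in the Zfp276cko libraries. Each Zfp276cko library was higher than each ctrl library, and the log2 fold change was 0.76 (standard error 0.30, 95% interval −0.06 to 1.58, adjusted p = 0.347 in edgeR and 0.202 in DESeq2). This was less than the difference between its ctrl replicates, where ctrl replicate 1 was lower by −0.84 on the log2 scale. Nr1h3, the LXR alpha receptor and an activator of Srebf1, had 70.0 and 484 normalized counts in the ctrl libraries against 744 and 676 in the Zfp276cko libraries. The ctrl replicates of Nr1h3 lay further apart than the genotypes (log2 fold change 1.36, standard error 0.89, edgeR adjusted p = 0.526). Pparg had 31 normalized counts or fewer in every library, and Mlxipl, which encodes ChREBP, between 2 and 8 counts. Over the 14 tested regulators 3 were lower and 3 higher in each Zfp276cko library, and the median log2 fold change was 0.06. Of all tested genes 23.7% were lower and 26.8% higher in this way, so that by this count the list did not stand out in either direction.

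**Figure D5:**
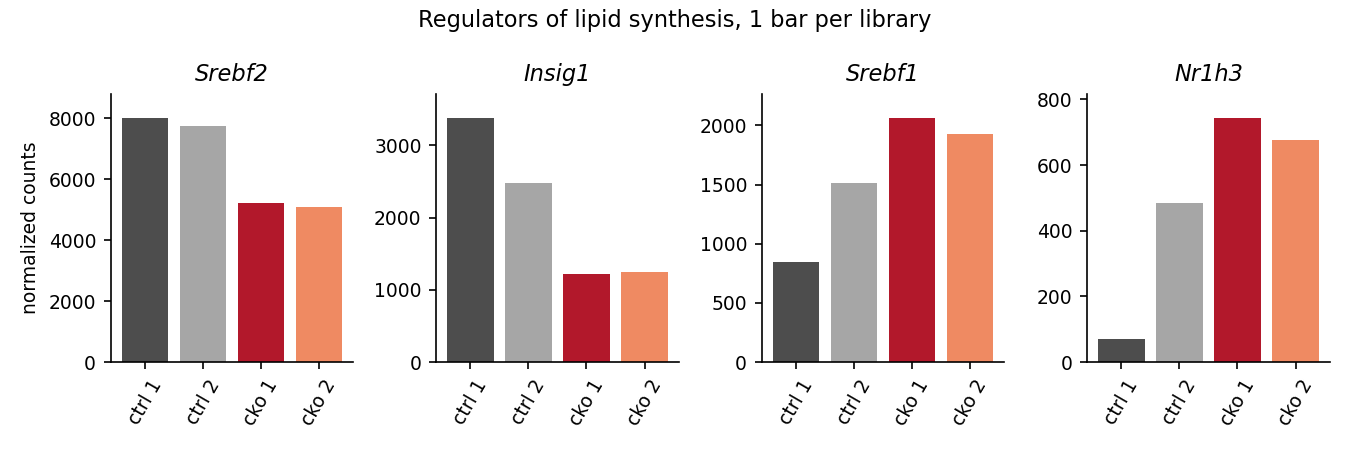
Normalized counts (linear axis from 0) of 4 regulators of lipid synthesis, with 1 bar for each library of ctrl and Zfp276cko (cko) cells. Srebf2 and Insig1 are lower and Srebf1 and Nr1h3 higher in each Zfp276cko library, and ctrl replicate 1 has the lowest value of Srebf1 (844) and of Nr1h3 (70.0).

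The mean profile of the 10 genes, as log2 values centred over the 4 libraries, was 0.55 and −0.02 for the ctrl libraries against −0.27 and −0.26 for the Zfp276cko libraries. The genes outside the group with the most similar profile, by the Euclidean distance over these 4 libraries among 11878 genes with a mean of at least 100, were Rpl7 (0.021), Snx22 (0.024), Aktip (0.027), Zcchc24 (0.035) and Rpl5 (0.046). Within the group Elovl6 (0.094), Fads1 (0.11) and Scd2 (0.12) were nearest to the mean profile, and Fasn (0.79) and Scd1 (1.26) farthest from it. Outside the group, 588 of the genes compared were nearer than 0.323, the median distance of the 10, so the profile was not particular to the group. How many genes lie as near to other profiles was not tested. Rpl7 and Rpl5 have many near-identical copies in the genome, and their counts are uncertain.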

How the data were processed

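Strand-specific mRNA libraries (TruSeq Stranded) of 4 OGC cultures were sequenced by the authors, who mapped the reads to mm10 with STAR 2.5.4a. The authors deposited raw counts per gene symbol, unfiltered and not normalized. The methods name HTSeq on Ensembl genes and uniquely mapped reads, whereas the submitters' processing notes list featureCounts 1.5.1, and the strand setting is not given in the sources used here. Me1, Elovl6 and Scd2 share between 30 and 61 nt of exon with a noncoding gene.

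Genes were filtered with filterByExpr (15766 left, with at least 99.88% of the counts), scaled by TMM and compared by edgeR's quasi-likelihood test without a block (edgeR 4.0.16 in R 4.3.3). DESeq2 1.42.0 and limma 3.58.1 served as alternatives. The study's thresholds were used for calls: adjusted p 0.05 (Benjamini-Hochberg), log2 fold change 0.6 in either direction and mean normalized count 20. Counts were normalized to the mean effective library size. RPKM used merged GENCODE M21 exons. Code was tested on simulated counts. The genes and lists were chosen with earlier results of these data known. Named are all 10 genes, their paralogs, the 2 lowest and 2 highest of each neighbouring list with a mean of at least 20, and the 5 nearest profiles. Promoter sequences are from RefSeq (GRCm38.p6). Precision is limited by 2 libraries per genotype, and intervals assume that they represent the genotype.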

Additional observations from a re-analysis of the deposited data

How the results depend on the processing

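Tried were DESeq2, limma voom, edgeR with DESeq2's size factors or its legacy setting off, no filter or a minimum of 10 counts per library, a replicate block, an unadjusted p, and leaving out each library. All 10 genes kept a negative log2 fold change under each of them, except Scd1 (0.24) and Elovl5 (0.11) without ctrl replicate 1, which were −2.04 and −0.76 without ctrl replicate 2. Of the 10 genes, DESeq2 called 1 lower and the unadjusted p 3, and with a library left out between 0 and 6 were called lower, the 6 without ctrl replicate 2. Over all genes, DESeq2 called 339 lower and 450 higher, the unadjusted p 476 and 806, and no filter 8 higher. With a library left out these counts lay between 0 and 1286 lower and between 0 and 1792 higher. A fit without a library assumes that the lone library of its genotype varies like the other genotype, and without a ctrl library the spread comes from the close Zfp276cko replicates alone. The median of the 10 genes lay between −0.82 and −0.34 with a library left out, and between −0.52 and −0.48 under the other settings. Libraries with the same replicate number did not deviate together (correlation 0.0067 over 14320 genes), so that the numbers were not taken as pairs. With the replicate block, 0 of the 10 genes were called, the median was −0.48 and the block changed no other call. The count of genes lower in each Zfp276cko library lay between 8 and 10. With a library left out fewer libraries have to be apart, so this count could hardly fall and is no check of the result.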
